A study of Mus musculus with 84 samples.

Results

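A set of 10 genes that mark mature astrocytes and do not encode the classical transporters of these cells was followed through a mouse RNA-seq study of astrocyte subtypes. The genes were taken by name, not by a threshold on these values, and comprised 10 of the 48526 genes in the deposited table of the experimental autoimmune encephalomyelitis (EAE) experiment and 10 of the 25773 genes in the table of the subtype experiment. All 10 were listed in both tables. They were chosen with earlier results of these data known, and the study itself had reported Aldh1l1 and Btbd17 as lower in spinal cord EAE. Shares of all genes printed beside counts of the 10 are therefore a description and not a test. The genes were Aldh1l1, Acsl3, Acsl6, Ckb, S100b, Ntsr2, Cldn10, Ttyh1, Htra1 and Btbd17.

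Isolated astrocytes had been sorted as CD11B- CD45- ACSA+ cells and split by surface GLAST into GLASTpos and GLASTneg cells. The EAE experiment held 66 libraries of C57BL/6 mice. EAE was induced in females of 10 weeks with a MOG peptide in complete Freund's adjuvant plus pertussis toxin, and controls were not immunized. Its 12 groups were hindbrain GLASTneg, hindbrain GLASTpos and spinal cord GLASTneg astrocytes of unimmunized controls and of mice at clinical score 1 (E1), at score 4 (E4) and in chronic disease (Ech), with 4 to 6 libraries in a group. The subtype experiment held 15 libraries of healthy FVB/N mice, 3 for each of 5 populations, and 3 libraries of C57BL/6J neonatal cerebrum astrocytes grown in culture. Material of up to 2 mice was pooled in an EAE library. The cultured cells were those left in the flask after microglia had been shaken off, and no sorting of them is described. Medium conditioned by L929 cells had been added, and their RNA was extracted with TRIzol, that of sorted cells with a kit. Strain, age, sorting, RNA extraction and culture differ together between cultured and isolated cells and cannot be told apart.

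Most of these genes have known functions in the resting, differentiated astrocyte. The enzymes among them handle folate-bound one-carbon units, activate long-chain fatty acids for lipid synthesis and buffer cellular ATP. S100b is a calcium-binding protein that oligodendrocyte-lineage cells also express, and Ntsr2, Cldn10 and Ttyh1 are membrane proteins. Reactive astrocytes in inflamed tissue and astrocytes kept in culture can both lose part of the mature astrocyte profile.

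Libraries read the 3′ end of transcripts. Values are CPM, a library's counts scaled to a common library size, after TMM scaling and are given for each library or, where a ± follows, as group mean and SD, and folds are edgeR log2 fold changes ± SE. Calling a gene required an adjusted p under 0.05 in the quasi-likelihood test of edgeR (two-sided, Benjamini-Hochberg over all genes tested together) plus a log2 fold change beyond 1 in either direction. A gene was termed kept when the 95% confidence interval of its log2 fold change lay within -1 to 1. Total counts were between 1313682 and 4895220 per EAE library, between 416768 and 1269316 per isolated FVB/N library and between 2183464 and 8188074 per cultured library. Of the 660 values of the 10 genes in the EAE experiment, 1 was at or under the floor of 3 counts, and of the 180 values in the subtype experiment 0 were. Floors and shares cover counting error only, since reads that carry no molecular identifier need not come from independent molecules. The labels do not say that libraries of a group came from separate animals, so p-values measure the spread between these libraries.

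In spinal cord EAE, 9 of the 10 genes fell and S100b did not fall. At E4 and at Ech, Aldh1l1, Acsl3, Acsl6, Ckb, Ntsr2, Cldn10, Ttyh1, Htra1 and Btbd17 were all called lower than in controls, while 11.1% and 9.57% of the 23324 genes tested were called lower in these comparisons. At E1, Aldh1l1, Acsl3, Acsl6, Ntsr2, Cldn10 and Btbd17 were called lower, against 3.68% of all genes. Median log2 fold changes of the 10 genes were -1.25 at E1, -3.35 at E4 and -3.93 at Ech, where the median of all genes was 0. None was called at any stage in either hindbrain population, where few genes were called at all, between 0.193% and 2.03% of those tested.

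The cells in these libraries were checked against marker genes, because the levels of the 10 genes moved with them. Summed over 8 astrocyte markers that are no members (Slc1a2, Slc1a3, Aqp4, Gfap, Gja1, Sox9, Atp1b2, Glul), spinal cord libraries held 15509.8 to 17865 CPM in controls, 7835 to 23476 at E1, 3494 to 10896 at E4 and 3079 to 4605 at Ech. All 8 were detected in every spinal cord library. At E4 and at Ech, 6 of the 8 were called lower, with a median log2 fold change over the 8 of -3.49 and -3.80. Glul was not among the 6, at 4174 ± 1952 CPM in controls, 5975 ± 2557 at E4 and 2936 ± 650 at Ech. As the highest of the 8 at E4 and Ech, it set much of these sums. Atp1b2 and Slc1a3 encode ACSA and GLAST, the surface antigens used to sort the cells. Atp1b2 fell from 6598 ± 926 CPM in controls to 357 ± 209 at E4 and 456 ± 137 at Ech. Whether this changed which cells the ACSA gate collected was not tested. Gfap, the intermediate filament of reactive astrocytes, was 48.8 ± 15 CPM in controls, 193 ± 76.7 CPM at E1, 105 ± 26.2 CPM at E4 and 45.7 ± 25.6 CPM at Ech.

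Markers of the oligodendrocyte lineage were present throughout. A list of 10 oligodendrocyte markers summed to 14358 to 41875 CPM in spinal cord controls, 26912 to 62071 at E1, 30361 to 77684 at E4 and 25393 to 41609 at Ech, and to 1470.4 to 5103 CPM in hindbrain GLASTneg controls. Of these 10, 4 were called higher in spinal cord at E1, 8 at E4 and 2 at Ech, where 2.5%, 6.8% and 5.16% of all genes were. Their median log2 fold change at E4 was 1.55. The 4 precursor markers (Pdgfra, Cspg4, Gpr17, Matn4) summed to 253 to 755 CPM in spinal cord controls, 438 to 1204 at E4 and 853 to 2704 at Ech, where all 4 were called higher. None of these oligodendrocyte and precursor markers was at 0 throughout a spinal cord group. A list of 12 myeloid markers summed to 14.4 to 42.6 CPM in controls and 130.3 to 4673 at E4, with 1 E4 library (replicate 2) at 4673 CPM and the other 5 between 130.3 and 284. Of the 12, 4 were called higher at E1, 9 at E4 and 4 at Ech. Lyz2 was at 0 counts in all 5 control libraries, and Tmem119, Ptprc and C1qb did not pass 3 counts there. Of 5 neuronal markers, 4 were called lower at E4 and Tubb3 higher (4.84 ± 0.58, adjusted p = 2.43e-10), with sums of 160.2 to 291 CPM in controls and 474 to 707 at E4. Of 6 fibroblast markers, 3 were called lower at E4 and 0 higher, with sums of 82 to 187 and 3.37 to 21.8 CPM. T cell markers (3 of 6 called higher) and endothelial markers (1 of 5) summed to 5.91 to 34.1 and 17.1 to 40.4 CPM at E4. The part of these other cell types in the fall of the 9 genes was not tested, and in bulk libraries fewer astrocytes and less RNA per astrocyte cannot be told apart.

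**Figure D1:**
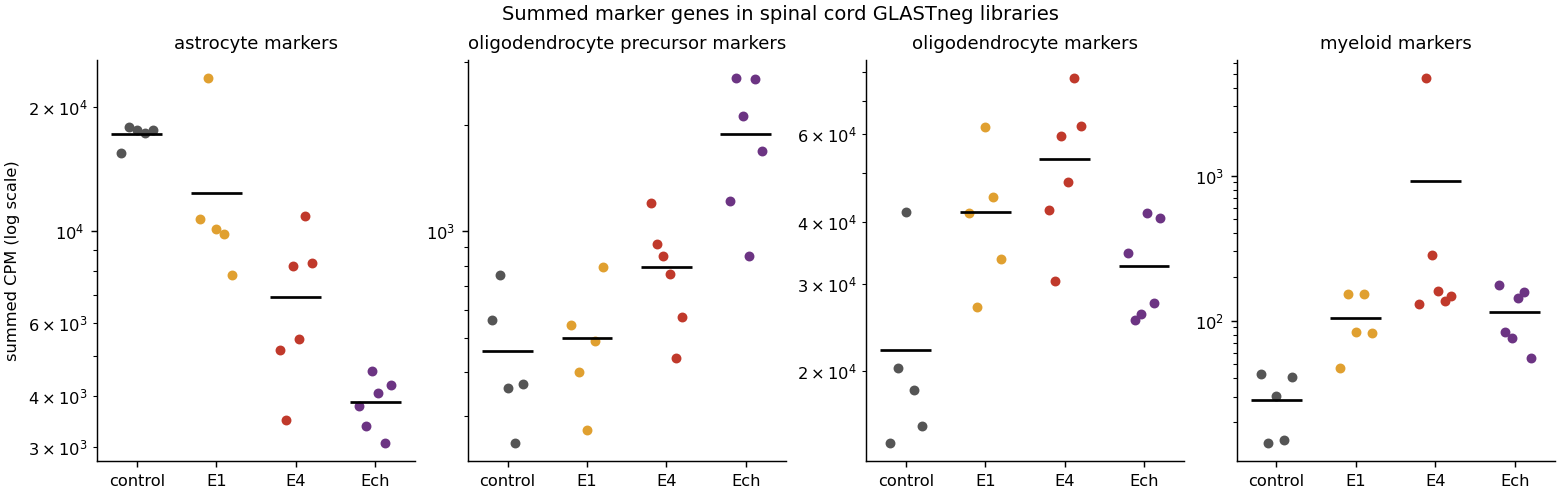
Summed CPM (log scale) of astrocyte, oligodendrocyte precursor, oligodendrocyte and myeloid marker genes in each spinal cord GLASTneg library, as points by stage with the mean as a line. Astrocyte markers sit between 15509.8 and 17865 CPM in controls and between 3079 and 4605 CPM at Ech, with Glul the highest single astrocyte marker at E4 and Ech. Precursor markers are highest at Ech, and 1 E4 library stands apart in myeloid markers.

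A set of 5 Hox genes that mark spinal cord position (Hoxc6, Hoxc8, Hoxc9, Hoxa7, Hoxa9) summed to 288 to 483 CPM in spinal cord controls, 58.9 to 249.8 at E1, 34.1 to 84.4 at E4 and 89.5 to 209 at Ech, against 0 to 2.55 CPM in hindbrain GLASTneg controls. Of the 5, 1 was called lower at E1, 5 at E4 and 1 at Ech. One E1 spinal cord library, replicate 1, is named as spinal cord in its title and as hindbrain in another field. The title was used, and its Hox sum of 179 CPM lay with the spinal cord libraries. A second E1 library, replicate 2, stood apart with an astrocyte marker sum of 23476 CPM where the other 4 E1 libraries held 7835 to 10741. For the 9 genes other than S100b, fold changes at E1 were also computed without it.

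Aldh1l1 (10-formyltetrahydrofolate dehydrogenase, ENSMUSG00000030088, chromosome 6 from 90486427 to 90600203 on the forward strand, GENCODE M21 on GRCm38) is the folate enzyme whose promoter is used to mark astrocytes. Aldh1l1 read 82.8, 73.8, 47, 69.4 and 93.1 CPM in the 5 spinal cord control libraries and 30.4, 45.1, 11.5, 26.7 and 19.1 CPM in the 5 at E1. It lay between 2.66 and 12.6 CPM (median 6.8) in the 6 E4 libraries and between 0.6 and 10.1 CPM (median 4.82) in the 6 Ech libraries, 1 of which held 2 counts. Every EAE library was below every control library at each of the 3 stages, and the lowest E1 library lay within the E4 range. The log2 fold changes were -1.46 ± 0.33 at E1 (adjusted p = 0.00156), -3.28 ± 0.34 at E4 (adjusted p = 1.36e-12) and -3.87 ± 0.35 at Ech (adjusted p = 7.35e-15), so that 10.2% of the control mean remained at E4. Aldh1l1 shares its last kilobase with the antisense gene Gm15756, and the sources used here do not give the strand setting of the counting.

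Aldh1l1 was kept in culture, at 87.9, 119.6 and 160.2 CPM in the 3 cultured libraries where the 15 isolated libraries lay between 115 and 217 CPM (median 162). The ranges overlapped, and the log2 fold change of -0.35 ± 0.22 had a 95% interval of -0.79 to 0.09 (adjusted p = 0.218). The interval passed -1 without culture replicate 3 (-0.63, interval -1.20 to -0.06) and against forebrain GLASTneg alone (-0.52 ± 0.28, interval -1.08 to 0.04). Its group means in hindbrain over the 4 stages lay between 82.8 and 111 CPM in GLASTneg and between 103 and 155 CPM in GLASTpos astrocytes, with no call.

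Of 13 other folate one-carbon enzymes, 1 was called lower and 1 higher in spinal cord at E4, 0 lower and 1 higher at E1 and at Ech, and 0 lower and 2 higher in culture, with median log2 fold changes of 0.04, 0.39 and 0.52 at E1, E4 and Ech. Over all genes, 2.5%, 6.8% and 5.16% were called higher at E1, E4 and Ech and 23.3% in culture, beside the shares called lower given above and 8.38% lower in culture. The one called higher at each stage was Aldh1l2, the mitochondrial paralog of Aldh1l1. Aldh1l2 rose from 6.24 ± 3.66 CPM in controls to 30.4 ± 12.7 CPM at E1, 58 ± 26.6 CPM at E4 and 41.5 ± 9.86 CPM at Ech, with log2 fold changes of 2.29 ± 0.75, adjusted p = 0.0441, 3.21 ± 0.76, adjusted p = 0.000819 and 2.73 ± 0.75, adjusted p = 0.00507. In cultured astrocytes it was 4.63 ± 1.15 CPM against 4.16 ± 6.54 CPM in the 15 isolated libraries.

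Acsl3 (ENSMUSG00000032883, chromosome 1 from 78657825 to 78707743 on the forward strand) encodes a long-chain acyl-CoA synthetase of the endoplasmic reticulum and lipid droplets. Acsl3 read 3630.3, 3479.8, 2678, 4134 and 3595 CPM in the spinal cord controls and 1731, 3202, 718, 1078 and 1495 CPM at E1. It then lay between 254 and 464 CPM (median 324) at E4 and between 259 and 449 CPM (median 356) at Ech. Replicate 2 of E1 was within the control range, the other 4 E1 libraries were below it, and the highest E4 or Ech library was below the lowest E1 library. Log2 fold changes were -1.09 ± 0.22 at E1 (adjusted p = 0.000294), -3.35 ± 0.22 at E4 (adjusted p = 8.39e-21) and -3.28 ± 0.22 at Ech (adjusted p = 1.6e-20).

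Acsl6 (ENSMUSG00000020333, chromosome 11 from 54303798 to 54364756 on the forward strand), a second acyl-CoA synthetase known for its preference for polyunsaturated fatty acids such as docosahexaenoic acid, fell further. Acsl6 read 525, 338, 457, 581 and 452 CPM in controls and 196, 398, 62.8, 83.9 and 142 CPM at E1. Later it lay between 7.33 and 29.6 CPM (median 17.4) at E4 and between 11.7 and 26 CPM (median 18.5) at Ech. Replicate 2 of E1 again lay within the control range and the rest of EAE lay below it. The log2 fold change was -1.41 ± 0.28 at E1 (adjusted p = 0.000212), -4.73 ± 0.30 at E4 (adjusted p = 1.56e-21) and -4.64 ± 0.29 at Ech (adjusted p = 2.84e-21), leaving 3.71% of the control mean at E4 where Acsl3 kept 9.82%.

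Both synthetases were lost in culture. Acsl3 read 136, 110.2 and 89.9 CPM in the cultured libraries and lay between 1374 and 3715 CPM (median 3163) in the isolated ones, a log2 fold change of -4.72 ± 0.22 (adjusted p = 2.39e-21). Acsl6 read 42.6, 58.2 and 41.2 CPM in culture and lay between 417 and 1214 CPM (median 947) in isolated astrocytes, with -4.17 ± 0.23 (adjusted p = 3.12e-19). In hindbrain the 4 stage means of Acsl3 lay between 4222 and 5209 CPM in GLASTneg and between 1795 and 2434 CPM in GLASTpos astrocytes, and those of Acsl6 between 745 and 979.9 and between 269 and 410.3 CPM.

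Among 6 other fatty acid activating enzymes, 2 were called lower and 1 higher at E1, 2 lower and 2 higher at E4, and 2 lower and 1 higher at Ech, where 3.68%, 11.1% and 9.57% of all genes were called lower and 2.5%, 6.8% and 5.16% higher. The pair called lower at E4 was Acsbg1, an acyl-CoA synthetase abundant in brain, and Slc27a1, a fatty acid transport protein with synthetase activity. Acsbg1 fell from 965 ± 189 CPM in controls to 42.9 ± 17.3 CPM at E4 (-4.49 ± 0.29, adjusted p = 8.39e-21) and 31.7 ± 15.4 CPM at Ech (-4.92 ± 0.30, adjusted p = 4.41e-22). Slc27a1 was lower already at E1 (-2.56 ± 0.46, adjusted p = 5.67e-05). Acsl1, another long-chain synthetase, was higher at E1 (1.51 ± 0.48, adjusted p = 0.0347). In culture 1 of the 6 was lower, Acsbg1 (-2.13 ± 0.18, adjusted p = 2.06e-13), and 1 higher, Acsl5 (2.43 ± 0.61, adjusted p = 0.00151), against 8.38% and 23.3% of all genes.

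Ckb (ENSMUSG00000001270, chromosome 12 from 111669361 to 111672338 on the reverse strand) encodes the brain isoform of cytosolic creatine kinase, which buffers ATP. Ckb read 3708, 3904, 4096, 3659 and 5090.2 CPM in spinal cord controls and 1777, 4412, 1554, 855 and 1925 CPM at E1. It lay between 256 and 1324 CPM (median 677) at E4 and between 354 and 1102 CPM (median 842) at Ech. All 12 later libraries were below all controls, and 4 of 5 E1 libraries were, while replicate 2 of E1 was not. The E1 change of -0.96 ± 0.31 passed the adjusted p threshold (0.0383) without reaching the fold threshold, and Ckb was called lower at E4 (-2.44 ± 0.30, adjusted p = 6.61e-10) and Ech (-2.37 ± 0.30, adjusted p = 2.07e-09), with 18.4% and 19.4% of the control mean remaining.

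Culture kept Ckb, at 1708, 2162 and 1939.8 CPM against a range between 887 and 2561 CPM (median 1369.6) in isolated astrocytes. The log2 fold change of 0.47 ± 0.16 was positive with a 95% interval of 0.16 to 0.79 (adjusted p = 0.0157). Against forebrain GLASTneg alone it was 0.59 ± 0.21 with an interval of 0.16 to 1.01, which passed 1. Ckb group means in hindbrain lay between 2621 and 3076 CPM in GLASTneg and between 2925 and 4011 CPM in GLASTpos astrocytes. Of 5 other genes of the creatine system tested in the EAE experiment, 0 were called lower at any spinal cord stage, against 3.68%, 11.1% and 9.57% of all genes at E1, E4 and Ech. At these stages 1, 2 and 1 of the 5 were called higher, against 2.5%, 6.8% and 5.16% of all genes. Slc6a8, the creatine transporter, was 121 ± 33.2 CPM in controls and 527 ± 126 CPM at E4 (2.12 ± 0.28, adjusted p = 5.22e-09). Gamt, the last enzyme of creatine synthesis, was 43.6 ± 26.2 CPM in controls and 197 ± 82.3 CPM at E4 (2.17 ± 0.45, adjusted p = 9.97e-05). Gatm, the first enzyme, was called lower in culture (-3.63 ± 0.43, adjusted p = 3.92e-09).

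S100b (ENSMUSG00000033208, chromosome 10 from 76253853 to 76261159 on the forward strand), a calcium-binding protein used both as an astrocyte and an oligodendrocyte-lineage marker, was the exception in spinal cord. S100b read 2070.2, 2546, 1827, 1932 and 2328 CPM in controls and 2547, 1992, 1248, 1875 and 1839.6 CPM at E1. It lay between 1354 and 3528 CPM (median 1969) at E4 and between 2428 and 4873 CPM (median 4280.2) at Ech. The E1 and E4 libraries overlapped the controls, and 5 of 6 Ech libraries were above all of them. S100b was kept at E1 (-0.17 ± 0.20, 95% interval -0.57 to 0.23, adjusted p = 0.681) and at E4 (0.04 ± 0.19, interval -0.34 to 0.43, adjusted p = 0.994). At Ech it was higher by 0.90 ± 0.20 (interval 0.51 to 1.29, adjusted p = 0.000307), under the fold threshold (1.01, and called, without Ech replicate 1), and it was higher than at E4 by 0.85 ± 0.18 (adjusted p = 0.00159).

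The rise of S100b at Ech moved with the oligodendrocyte precursor markers given above, and the part of such cells in it was not tested. The antisense gene Dip2a overlaps its last kilobase. In culture S100b was lost, at 67.2, 138 and 91.7 CPM where isolated libraries lay between 576 and 7554 CPM (median 1372), with a log2 fold change of -3.76 ± 0.30 (adjusted p = 4.55e-14). Summed oligodendrocyte markers were 429 to 545 CPM in the cultured libraries and 1407 to 15644 CPM in the isolated ones, and S100b was below every isolated library in all 3 cultures.

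Of 10 other S100 genes tested in the EAE experiment, 0 were called lower at any spinal cord stage, against 3.68%, 11.1% and 9.57% of all genes at E1, E4 and Ech. At these stages 5, 5 and 8 of the 10 were called higher, where 2.5%, 6.8% and 5.16% of all genes were called higher. Of 8 tested in culture 0 were lower and 5 higher, against 23.3% of all genes called higher. S100a11 had 0 counts in all 5 spinal cord controls and 1.9 to 9.09 CPM at Ech. In culture S100a11 read 183 to 340.3 CPM against 0 to 15.5 CPM in isolated astrocytes (7.28 ± 0.39, adjusted p = 1.67e-19), and S100a4 read 33.4 to 180.4 against 0 to 13 CPM (5.46 ± 0.48, adjusted p = 1.2e-12). S100a8 and S100a9, which neutrophils express, also had 0 counts in all spinal cord controls, and their highest values, 287 and 242 CPM, were those of the E4 library with the high myeloid sum.

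**Figure D2:**
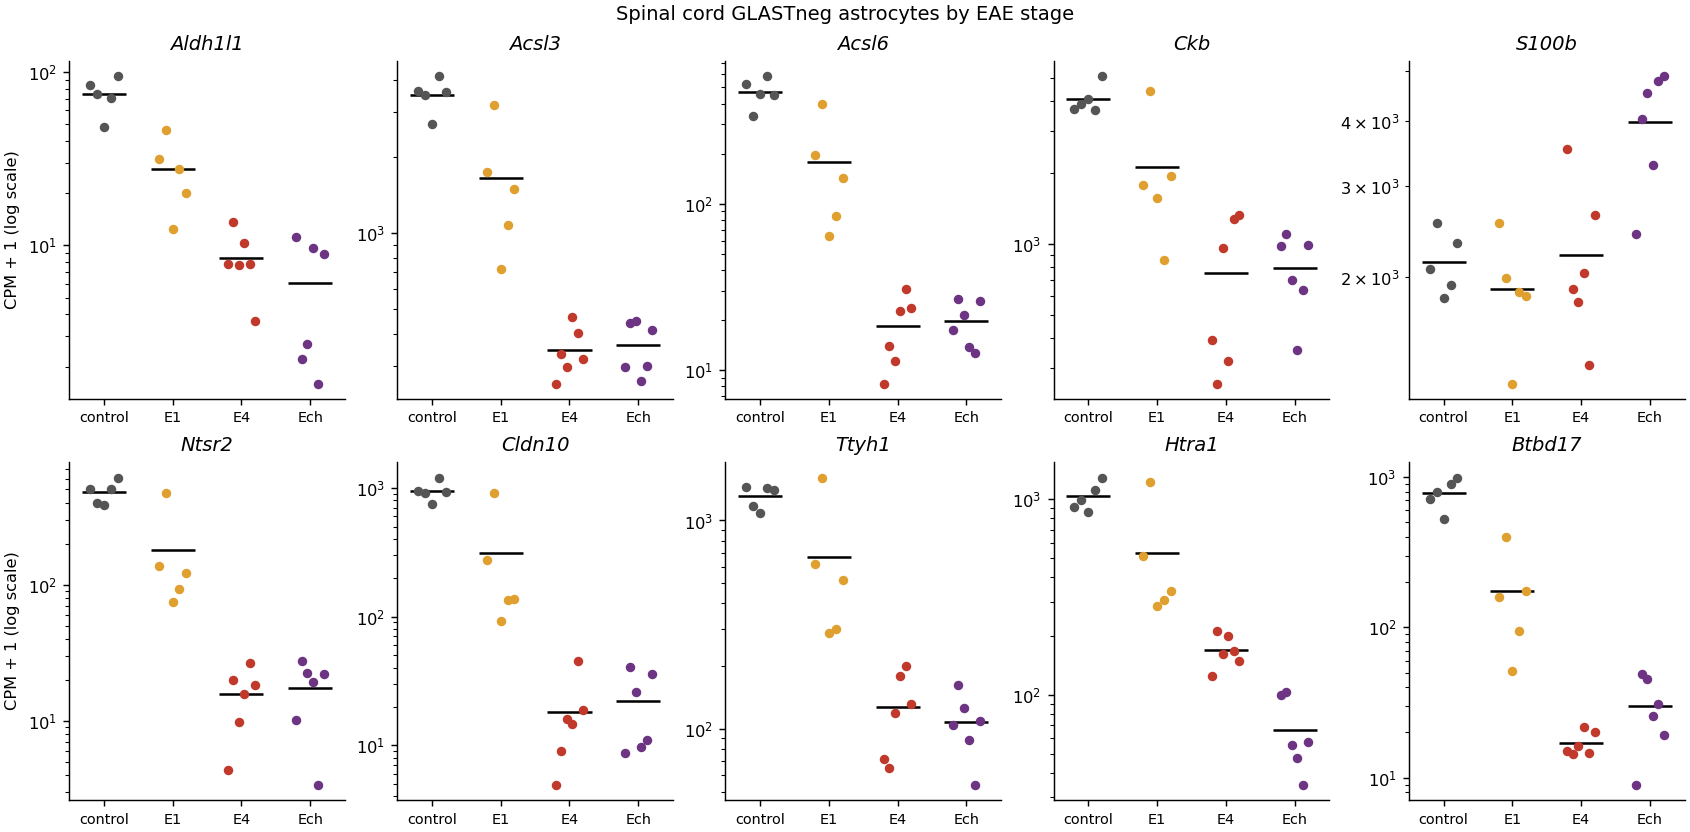
CPM + 1 (log scale) of the 10 genes in each spinal cord GLASTneg library, as points by stage (control and E1, 5 libraries each; E4 and Ech, 6 each) with the group mean as a line. In this plot 9 genes step down from control to E1 to E4, with 1 E1 library near the controls, and S100b stays level and is highest at Ech.

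Ntsr2 (ENSMUSG00000020591, chromosome 12 from 16653382 to 16660227 on the forward strand) encodes a neurotensin receptor that is enriched in astrocytes. Ntsr2 read 502, 395, 384, 499 and 610.2 CPM in spinal cord controls and 135, 467, 73.1, 91.5 and 121 CPM at E1. It lay between 3.38 and 25.5 CPM (median 16.1) at E4 and between 2.4 and 26.6 CPM (median 19.6) at Ech. Replicate 2 of E1 lay inside the control range, the other E1 libraries were well below it, and E4 and Ech lay lower still. Log2 fold changes were -1.43 ± 0.33 (adjusted p = 0.00178), -4.99 ± 0.36 (adjusted p = 3.83e-19) and -4.85 ± 0.35 (adjusted p = 9.28e-19) in that order, a 32.4-fold lower mean at E4.

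In culture Ntsr2 was 38.2, 24.2 and 20.6 CPM, and isolated libraries lay between 889.6 and 1388 CPM (median 1129.8). This was a log2 fold change of -5.37 ± 0.25 (adjusted p = 2.14e-21). Hindbrain means of Ntsr2 lay between 787 and 994 CPM in GLASTneg and between 329 and 425 CPM in GLASTpos astrocytes over the stages. Of the 2 other genes of the neurotensin system that could be tested, 0 were called at any spinal cord stage.

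Cldn10 (ENSMUSG00000022132, chromosome 14 from 118787908 to 118875489 on the forward strand) encodes a claudin, a protein of tight junctions that can form ion-selective pores. Cldn10 read 941, 909, 744, 1200.5 and 927 CPM in spinal cord controls and 272, 912, 91.6, 134 and 136 CPM at E1. It lay between 3.95 and 44.4 CPM (median 14.3) at E4 and between 7.76 and 39.7 CPM (median 17.3) at Ech. Replicate 2 of E1, at 912 CPM, was again within the control range and the other 4 were at or below 272. The changes were -1.61 ± 0.37 (adjusted p = 0.00168), -5.74 ± 0.41 (adjusted p = 3.8e-19) and -5.49 ± 0.40 (adjusted p = 1.55e-18), and at E4 the mean was 55.1-fold lower than in controls.

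Culture took Cldn10 down furthest of the 10 genes, to 6.36, 7.54 and 5.61 CPM from a range between 625.3 and 1347 CPM (median 1169.6) in isolated astrocytes, with a log2 fold change of -7.31 ± 0.26 (adjusted p = 7.07e-25). Hindbrain means were between 574 and 859 CPM in GLASTneg and between 426 and 615 CPM in GLASTpos astrocytes. Of 11 other claudins tested in the EAE experiment 0 were called lower in spinal cord at any stage, against 3.68%, 11.1% and 9.57% of all genes at E1, E4 and Ech. At these stages 2, 2 and 1 claudins were called higher, against 2.5%, 6.8% and 5.16% of all genes. These included Cldn11, a claudin of myelin that is also in the list of oligodendrocyte markers, which was 806 ± 426 CPM in controls and 5320.3 ± 1158 CPM at E4 (2.72 ± 0.43, adjusted p = 6.46e-07). In culture 2 of 8 claudins were called lower, among them Cldn11 (-4.23 ± 0.39, adjusted p = 5.3e-12), and 4 higher, against 8.38% and 23.3% of all genes.

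Ttyh1 (ENSMUSG00000030428, chromosome 7 from 4119408 to 4136708 on the forward strand) encodes a membrane protein of the tweety family. Ttyh1 read 1449.5, 1175, 1083, 1435 and 1401 CPM in spinal cord controls and 619, 1607, 288, 299.7 and 515 CPM at E1. It lay between 64.2 and 199 CPM (median 125) at E4 and between 53.1 and 162 CPM (median 106) at Ech. Replicate 2 of E1 was above all controls and the other 4 were below all of them. The E1 change of -0.98 ± 0.27 passed the adjusted p threshold (0.0114) just short of the fold threshold, and E4 (-3.36 ± 0.27, adjusted p = 6.01e-17) and Ech (-3.62 ± 0.27, adjusted p = 5.09e-18) were called lower.

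In cultured astrocytes Ttyh1 was 402, 359 and 451 CPM and in isolated ones it lay between 2316 and 3765 CPM (median 2523), a log2 fold change of -2.71 ± 0.18 (adjusted p = 4.55e-16) that was the smallest among the 8 genes lost in culture. Hindbrain means lay between 1983 and 2411 CPM in GLASTneg and between 2187 and 2866 CPM in GLASTpos astrocytes. Its antisense neighbour D030047H15Rik overlaps the last kilobase. Of the 2 other tweety genes, Ttyh3 was called lower at E4 (-3.21 ± 0.31, adjusted p = 1.26e-13), at Ech (-1.98 ± 0.30, adjusted p = 2.11e-07) and in culture (-1.08 ± 0.19, adjusted p = 1.69e-05).

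Htra1 (ENSMUSG00000006205, chromosome 7 from 130936111 to 130985660 on the forward strand) encodes a secreted serine protease that acts on extracellular matrix and growth factors. Htra1 read 916, 996, 859, 1118 and 1291 CPM in spinal cord controls and 509.8, 1224, 283, 305 and 338 CPM at E1. It lay between 124 and 212 CPM (median 164) at E4 and between 33.9 and 102 CPM (median 55.5) at Ech. Replicate 2 of E1 was within the control range, the other E1 libraries were below it, and all 6 Ech libraries were below all 6 E4 libraries. The E1 change of -0.96 ± 0.25 (adjusted p = 0.00832) was under the fold threshold, and E4 (-2.62 ± 0.25, adjusted p = 7.09e-14) and Ech (-3.98 ± 0.26, adjusted p = 1.6e-20) were called lower.

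Htra1 was the 1 gene of the 10 called between Ech and E4 (-1.36 ± 0.24, adjusted p = 6.91e-05), in a comparison where 1.22% of all genes were called lower. In culture it was 33.4, 62.6 and 44.6 CPM against a range between 1175 and 4960.4 CPM (median 3553) in isolated astrocytes (-6.02 ± 0.24, adjusted p = 2.7e-23). Hindbrain means lay between 1099.8 and 1542 CPM in GLASTneg and between 298 and 571 CPM in GLASTpos astrocytes. The antisense gene Fgfr2 overlaps its last kilobase. Of 3 other HtrA genes, 0 were called lower at any spinal cord stage and Htra3 was called higher at E4 (2.33 ± 0.40, adjusted p = 3.71e-06) and Ech (1.48 ± 0.39, adjusted p = 0.00386). Over all genes, 11.1% and 9.57% were called lower at E4 and Ech, and 6.8% and 5.16% higher.

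Btbd17 (ENSMUSG00000000202, chromosome 11 from 114791217 to 114795945 on the reverse strand) encodes a BTB domain protein of little known function that is enriched in astrocytes. Btbd17 read 716, 796, 523, 902 and 990.2 CPM in spinal cord controls and 159, 395, 50.2, 94.2 and 173 CPM at E1. It lay between 13.5 and 20.6 CPM (median 14.7) at E4 and between 8 and 48 CPM (median 27.3) at Ech. Every E1 library was below every control, every E4 library was below every E1 library, and Ech overlapped E4. Btbd17 had the largest log2 fold change of the 10 genes at E1, -2.17 ± 0.30 (adjusted p = 2.4e-07), followed by -5.61 ± 0.33 at E4 (adjusted p = 2.01e-22) and -4.76 ± 0.31 at Ech (adjusted p = 1.43e-20). With Aldh1l1 it was 1 of 2 members whose E1 and control libraries did not overlap, against 2.32% of all genes lower without overlap.

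In culture Btbd17 was 67.2, 86.9 and 118 CPM and in isolated astrocytes it lay between 853 and 2114 CPM (median 1423), with a log2 fold change of -3.91 ± 0.23 (adjusted p = 3.52e-18). Its hindbrain means were between 800.3 and 1321 CPM in GLASTneg and between 823 and 1185 CPM in GLASTpos astrocytes. Both ranges had their highest mean in controls. The log2 fold changes of Btbd17 in hindbrain lay between -0.72 and -0.15, all negative, and none passed the adjusted p threshold.

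Together the 10 genes fell into 3 patterns. Acsl3, Acsl6, Ntsr2, Cldn10, Ttyh1, Htra1 and Btbd17 were called lower both in spinal cord at E4 and Ech and in culture. Aldh1l1 and Ckb were called lower in spinal cord and kept in culture against the mean of the isolated groups, although neither was kept by the interval against forebrain GLASTneg alone and Aldh1l1 was not without culture replicate 3. S100b was not called in spinal cord, was kept at E1 and E4 and was called lower in culture. The EAE and subtype experiments were normalized separately.

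**Figure D3:**
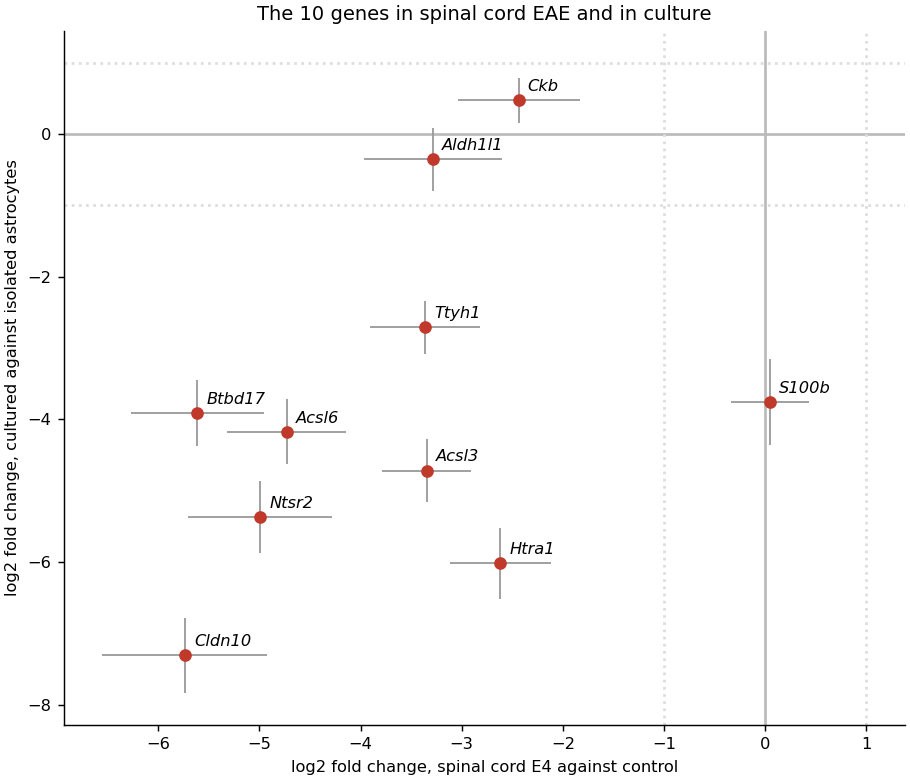
Log2 fold change of the 10 genes in spinal cord at E4 against controls (horizontal) and in cultured against isolated astrocytes (vertical), with 95% confidence intervals; dotted lines mark log2 fold changes of 1 and -1. S100b sits at 0.04 and -3.76, Ckb at -2.44 and 0.47 and Aldh1l1 at -3.28 and -0.35, and the other 7 genes are below -2 on both axes.

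One promoter is shown for each pattern, since these 3 were also the only member promoters that held any of the motifs searched. The sequences are RefSeq promoters on GRCm38.p6, from 250 bases before to 50 bases after the annotated start, printed 5′ to 3′ along the gene, with motif matches in capitals. S100b (chr10:76253586-76253885, forward strand) was kept in spinal cord at E1 and E4 and was higher at Ech. Ckb (chr12:111672289-111672588, reverse strand) was kept in culture against the mean of the isolated groups. Ntsr2 (chr12:16653220-16653519, forward strand) was lost in spinal cord EAE and in culture.
S100b: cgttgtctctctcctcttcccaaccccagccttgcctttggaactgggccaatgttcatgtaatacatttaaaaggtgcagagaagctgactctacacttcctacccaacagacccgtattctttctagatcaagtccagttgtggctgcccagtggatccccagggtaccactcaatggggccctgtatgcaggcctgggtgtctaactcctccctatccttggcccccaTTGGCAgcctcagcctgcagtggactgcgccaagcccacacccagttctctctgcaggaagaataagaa
Ckb: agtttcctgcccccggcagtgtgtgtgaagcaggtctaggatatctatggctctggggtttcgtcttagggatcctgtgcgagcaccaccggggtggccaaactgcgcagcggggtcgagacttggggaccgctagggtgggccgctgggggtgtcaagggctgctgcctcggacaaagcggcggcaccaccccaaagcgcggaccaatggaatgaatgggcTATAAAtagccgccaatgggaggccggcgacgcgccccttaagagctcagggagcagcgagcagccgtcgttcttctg
Ntsr2: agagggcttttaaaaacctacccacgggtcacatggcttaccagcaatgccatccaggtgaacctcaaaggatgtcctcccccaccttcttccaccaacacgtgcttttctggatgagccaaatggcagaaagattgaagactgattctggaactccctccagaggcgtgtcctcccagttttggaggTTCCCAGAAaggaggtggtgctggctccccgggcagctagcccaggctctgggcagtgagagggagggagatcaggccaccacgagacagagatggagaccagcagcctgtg

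The capitals in S100b mark TTGGCA, a short site of the nuclear factor I (NFI) family, which takes part in astrocyte differentiation. This motif was held on either strand by 14.1% of 32851 promoters of that length. In Ckb the capitals mark TATAAA, found in 13.6% of promoters, and in Ntsr2 they mark a match to TTCNNNGAA, the core of STAT sites, found in 8.3%. The full NFI palindrome (0.0365% of promoters) and the SOX motif AACAAT (10.7%) were in none of the 13 promoters of the 10 genes. A match is a description of letters and says nothing of binding.

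The fall of the 9 genes began at E1 and was deeper at E4. Compared with E1, the same 9 were called lower at E4, where 3.97% of all genes were, with log2 fold changes from -1.48 for Ckb to -4.12 for Cldn10. With sheet number as a term, Ckb (-1.04, adjusted p = 0.0927) and Aldh1l1 (-1.47, adjusted p = 0.0528) were no longer called. S100b was kept between these stages (0.22 ± 0.19, interval -0.17 to 0.60). From E4 to Ech, Acsl3 (0.06), Acsl6 (0.09), Ckb (0.07), Ntsr2 (0.14), Cldn10 (0.25) and Ttyh1 (-0.25) had intervals within -1 to 1.

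The E1 group was uneven. Without E1 replicate 2, 9 of the 10 genes were called lower at E1, among them Htra1 (-1.54, adjusted p = 1.32e-06), Ttyh1 (-1.61, adjusted p = 1.22e-06) and Ckb (-1.43, adjusted p = 0.000726). The log2 fold changes of the genes called with it were then -1.74 for Aldh1l1, -1.49 for Acsl3, -1.958 for Acsl6, -2.19 for Ntsr2, -2.58 for Cldn10 and -2.73 for Btbd17. Ckb then no longer reached the fold threshold between E4 and E1 (-0.97). A fit on spinal cord libraries alone called 3 of the 10 at E1. Titles of the EAE libraries end in the letter S and a number, read here as a sample sheet number. The labels do not name it or say whether it marks a batch. It was 57 or more in all 5 spinal cord controls, in 4 of 5 libraries at E1, in 1 of 6 at E4 and in 4 of 6 at Ech. Among libraries with numbers of 57 or more, 2 genes were still called at E1, Acsl6 (-1.21, adjusted p = 0.0349) and Btbd17 (-1.95, adjusted p = 0.00643), and the same 9 at Ech. Shares of all genes called were computed for the main fits only. Counts from refits, here and below, therefore have no such share beside them.

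The 9 genes were also low at E4 without the library of high myeloid sum. Without E4 replicate 2, all 9 genes were called lower, with log2 fold changes between -2.26 for Ckb and -5.60 for Cldn10. The single E4 library with a sheet number of 57 or more, replicate 3, read 296 CPM of Acsl3 and 15.3 CPM of Btbd17, both below every control. All 9 genes had E4 and Ech libraries that did not overlap the controls, against 7.01% and 6.65% of all genes that were lower without overlap.

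In hindbrain astrocytes none of these genes was called. In 60 tests of 10 genes at 3 stages in 2 populations, log2 fold changes lay between -0.72 and 0.50, 0 were called by edgeR and 6 had an unadjusted p under 0.05. DESeq2 called 0 as well. Of all genes, 0.643%, 0.729% and 0.193% were called in GLASTneg and 1.49%, 2.03% and 1.31% in GLASTpos astrocytes at E1, E4 and Ech. For 46 of the 60 values the interval lay within -1 to 1. Btbd17 and Cldn10 had intervals within that range in 1 of 6 comparisons each, and their log2 fold changes were all negative, between -0.72 and -0.15 for Btbd17 and between -0.58 and -0.23 for Cldn10.

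**Figure D4:**
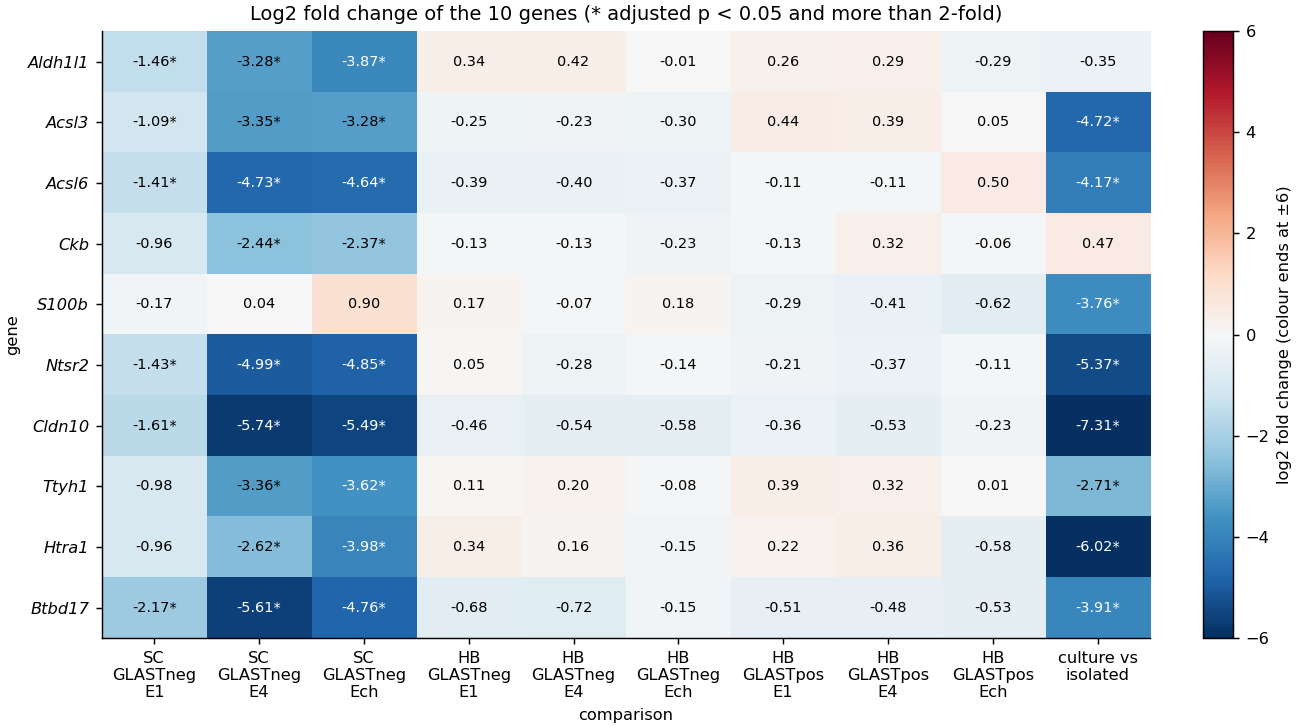
Log2 fold change of each gene (rows) at each EAE stage against controls in the 3 populations and in cultured against isolated astrocytes (columns); asterisks mark genes called. Calls fill the spinal cord E4 and Ech columns except for S100b and the culture column except for Aldh1l1 and Ckb, and no hindbrain column holds one.

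The difference in response between spinal cord and hindbrain was tested as an interaction. At E4 and at Ech, 9 of 10 genes were called lower in the response of spinal cord against that of hindbrain GLASTneg astrocytes, where 6.0% and 5.26% of all genes were, with log2 differences at E4 from -2.31 ± 0.42 for Ckb to -5.20 ± 0.52 for Cldn10. Against hindbrain GLASTpos astrocytes the same 9 were called lower at E4 and at Ech, where 8.49% and 8.63% of all genes were. S100b differed in the other direction at Ech against GLASTpos, as 3.99% of all genes did (1.52 ± 0.29, adjusted p = 7.72e-05), and did not pass against GLASTneg (0.72 ± 0.27, adjusted p = 0.0911). The difference against GLASTpos joins the rise in spinal cord to a lower S100b in hindbrain GLASTpos at Ech. There it was at 64.9% of the control mean, a log2 fold change of -0.62 that did not pass in edgeR (adjusted p = 0.124).

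At E1 the interaction was weaker. None of the 10 was called against hindbrain GLASTneg by edgeR, 8 had an unadjusted p under 0.05, DESeq2 called 4, and the largest was Aldh1l1 (-1.81 ± 0.45, adjusted p = 0.0587), where 0.146% of all genes were called lower. Against GLASTpos, where 1.37% of all genes were called lower, 5 of the 10 were, namely Acsl3 (-1.53), Acsl6 (-1.30), Aldh1l1 (-1.73), Btbd17 (-1.66) and Ttyh1 (-1.37). Without E1 replicate 2 these counts were 8 and 9. Numbers in the column names recur between populations, so some libraries may share mice. The tests treat libraries as independent.

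Among unimmunized controls the populations themselves differed. Against hindbrain GLASTneg, hindbrain GLASTpos astrocytes had lower Acsl3 (-1.54 ± 0.22, adjusted p = 1.45e-07), Acsl6 (-1.75 ± 0.28, adjusted p = 1.71e-06), Htra1 (-1.46 ± 0.26, adjusted p = 1.55e-05) and Ntsr2 (-1.17 ± 0.32, adjusted p = 0.00768). They had higher S100b (1.47 ± 0.20, adjusted p = 8.51e-08). These 5 of 10 compare with 10.5% of all genes called. Acsl3 was 1797, 1620.3, 1558, 1900.0 and 2099 CPM in GLASTpos and 4863, 5808, 5023, 5102 and 5250.0 CPM in GLASTneg controls. S100b was 5155, 4195, 3846, 3197 and 5086 CPM in GLASTpos and 1511, 1716, 1509.8, 1705 and 1337 CPM in GLASTneg controls. In both genes the populations did not overlap. Sheet numbers were all under 57 in hindbrain GLASTneg and all 57 or more in GLASTpos libraries, and number and population cannot be told apart.

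Spinal cord GLASTneg controls differed less from hindbrain GLASTneg controls. Acsl6 was lower (-1.06 ± 0.27, adjusted p = 0.00714) and Ntsr2 was at the threshold (-1.002 ± 0.32, adjusted p = 0.0496), where 4.2% of all genes were called, and leaving out single libraries gave 0 to 2 calls. The order of Ntsr2 means was hindbrain GLASTneg, 957 ± 143 CPM, then spinal cord, 478 ± 92.6 CPM, and hindbrain GLASTpos, 425 ± 29.9 CPM, and the last 2 ranges overlapped. For Ckb the control means were 4092 ± 584 CPM in spinal cord, 3211 ± 585 CPM in hindbrain GLASTpos and 3076 ± 397 CPM in hindbrain GLASTneg. Its spinal cord libraries lay above all hindbrain GLASTneg ones and overlapped the GLASTpos ones, and the difference from hindbrain GLASTneg was not called.

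In the FVB/N libraries the group names need care. In the study's own table of its most highly expressed genes, 12 of these 15 libraries carry another group name than in the labels, as found by matching values over 500 genes. Libraries labelled forebrain GLASTpos are named hindbrain GLASTneg there, those labelled hindbrain GLASTneg are named spinal cord GLASTneg, those labelled hindbrain GLASTpos are named forebrain GLASTpos, and those labelled spinal cord GLASTneg are named hindbrain GLASTpos. Hox genes of spinal cord position summed to 414 to 504 CPM in the libraries labelled hindbrain GLASTneg and to 0 in all 3 labelled spinal cord GLASTneg, against their labels. Groups are written as labelled, with the other name given beside them or earlier in the same paragraph.

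Of the 10 genes, 7 varied among the 5 isolated groups (edgeR quasi-likelihood F-test, adjusted p under 0.05), where 10.2% of 14957 genes did. Ntsr2, Aldh1l1 and Ttyh1 did not pass. S100b had the largest F statistic. It read 7554, 2803 and 2087 CPM in the libraries labelled spinal cord GLASTneg (named hindbrain GLASTpos), 1582, 1129.8 and 1683 in those labelled forebrain GLASTpos (named hindbrain GLASTneg) and 1372, 1691 and 1770.5 in those labelled hindbrain GLASTneg (named spinal cord GLASTneg). It read 883, 637 and 576 CPM in forebrain GLASTneg and 706, 626 and 602 CPM in the libraries labelled hindbrain GLASTpos (named forebrain GLASTpos). The first 3 of these groups lay above the last 2 without overlap.

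The group labelled spinal cord GLASTneg (named hindbrain GLASTpos) stood out against the mean of the other 4, where 7.54% of all genes were called. S100b was higher by 2.01 ± 0.17 (adjusted p = 5.67e-18) and Htra1 was lower (-1.40 ± 0.17, adjusted p = 6.14e-11). Acsl6 (-0.98 ± 0.18, adjusted p = 2.7e-05), Cldn10 (-0.90 ± 0.18, adjusted p = 6.71e-05) and Acsl3 (-0.87 ± 0.16, adjusted p = 2.48e-05) were lower without passing the fold threshold. For S100b, Htra1, Acsl3 and Acsl6 these were the directions of hindbrain GLASTpos against hindbrain GLASTneg controls in the C57BL/6 mice, given above, whereas Ntsr2, which was called lower there, did not pass the F-test among the FVB/N groups (adjusted p = 0.859). S100b was also called lower in forebrain GLASTneg (-1.19 ± 0.20, adjusted p = 2.56e-05), where 1.18% of all genes were called and the call was lost without replicate 1 of the group labelled spinal cord GLASTneg, and in the group labelled hindbrain GLASTpos (named forebrain GLASTpos, -1.32 ± 0.21, adjusted p = 1.15e-06), where 2.49% were. Ckb was highest in the group labelled hindbrain GLASTneg (named spinal cord GLASTneg), 2561, 2003 and 1846 CPM, by 0.78 ± 0.16 (adjusted p = 0.000186).

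**Figure D5:**
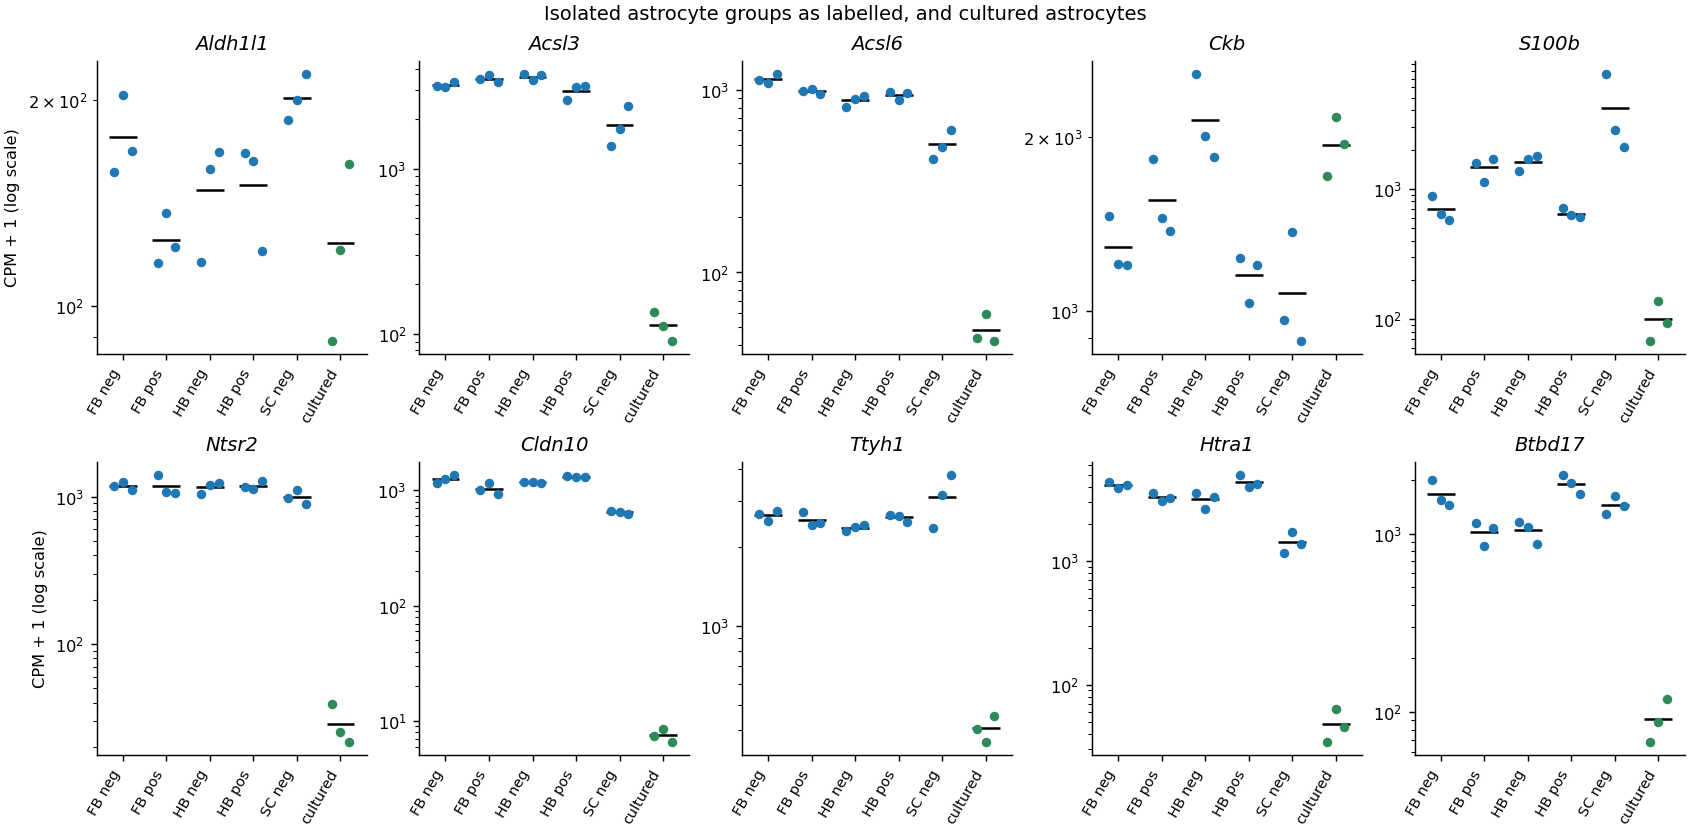
CPM + 1 (log scale) of the 10 genes in the 3 libraries of each isolated FVB/N group, named as labelled (FB forebrain, HB hindbrain, SC spinal cord; neg and pos for GLAST), and in the 3 cultured libraries, with group means as lines. In the study's own table the groups shown as FB pos, HB neg, HB pos and SC neg are named hindbrain GLASTneg, spinal cord GLASTneg, forebrain GLASTpos and hindbrain GLASTpos. The 8 genes other than Aldh1l1 and Ckb are lower in every cultured library than in every isolated one.

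Of the 10 genes, 8 were called lower in cultured than in isolated astrocytes, where 8.38% of the 17126 genes tested were. The same 8 had every cultured library below every isolated library, against 4.31% of all genes. This contrast with the mean of the 5 isolated groups does not depend on how the FVB/N groups are named, and 8 were also called against forebrain GLASTneg alone, where 7.85% of all genes were. Against forebrain GLASTneg neither Aldh1l1 nor Ckb was kept, and Ckb passed the adjusted p threshold (0.59 ± 0.21, adjusted p = 0.0445) under the fold threshold. The median log2 fold change of all genes was 0.43 and 0.22 among genes whose mean reached 5 CPM. Relative to the latter, Aldh1l1 changed by -0.58 and Ckb by 0.25, and with RLE size factors Ckb no longer passed (0.35, adjusted p = 0.0714).

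Markers of other cell types were also present in the cultured libraries. The 8 other astrocyte markers summed to 5656 to 6154 CPM against 21386 to 30648 CPM in isolated libraries, with 6 of the 8 called lower and Gfap higher. Sox9, an astrocyte transcription factor, was not called, at 1552 ± 406 CPM in culture and 1426 ± 349 CPM in the isolated libraries. The 12 myeloid markers summed to 416 to 3307 CPM against 17.5 to 244 CPM, with none at 0 in all cultured libraries. The 5 ependymal markers summed to 773 to 1462 CPM against 34.2 to 954 CPM. Of 6 fibroblast markers 1 was called lower and 2 higher. Of 5 neuronal and of 5 endothelial markers, 1 each was called lower and 1 higher, against 8.38% and 23.3% of all genes. Which cells of these unsorted cultures expressed the markers, and their part in the culture differences, was not tested. Without the culture with the highest myeloid marker sum (replicate 3), Acsl3 changed by -4.61 and Acsl6 by -4.12, 8 genes were called, and Aldh1l1 (-0.63, interval -1.20 to -0.06) was no longer kept.

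Genes with the pattern most like each member were sought over the 12 EAE group means, by Pearson's r of log2(CPM + 1) among the 10972 genes whose mean reached 5 CPM. Groups of the same region and a common fall in spinal cord set much of each r, which is a description only. Acsl6 was among the 3 genes most like Ntsr2 and Ntsr2 was first for Acsl6 (r = 0.994), both next to Fgfr3, a growth factor receptor (r = 0.996 and 0.994). Aldh1l1 was most like Aldoc, a glycolytic enzyme (r = 0.996), Btbd17 most like Tril (r = 0.997), Ttyh1 most like Gabrb1, a GABA receptor subunit (r = 0.996), and Cldn10 most like Adrb1 (r = 0.991). Acsl3 was most like Plcd4 (r = 0.991), Htra1 most like Smpd1 (r = 0.988) and Ckb most like Lgr6 (r = 0.979). S100b had the lowest best match, Hat1 (r = 0.956), a histone acetyltransferase, followed by Ttll12 and Cct4 (r = 0.952 and 0.946).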

How the data were processed

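The authors aligned 3′ end (QuantSeq) reads to GRCm38 with HISAT 0.1.5 and counted them per gene with HTSeq 0.6.1p1 and SAMtools, per the submitters' processing notes, and deposited raw counts per Ensembl gene in 2 tables, for 66 and 18 libraries. The strand setting is not given in the sources used here. Symbols and coordinates were taken from GENCODE M21. Genes with a total count of at least 10 were kept, scaled by TMM, and tested with edgeR 4.0.16 (quasi-likelihood test, all groups of a table in 1 fit, Benjamini-Hochberg adjustment over all genes). Isolated groups were compared in a fit of their own. Samples were grouped by their titles. Intervals are at the 95% confidence level. Alternatives were RLE size factors, DESeq2 1.42.0, no filter, a replicate block, a sheet number term, fits within a population, other group names and leaving out each library, for which the trended dispersions of the full fit were reused. The script was tested on simulated data. The 10 genes and all gene lists were chosen with earlier results of these data known. Besides the 10 genes, at most 2 called genes of a mean of at least 5 CPM were named per family list and comparison, by largest log2 fold change, and for likeness the genes with the highest r; Sox9 was named after its values were seen. Precision follows total counts, with a floor of 3 counts.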

Additional observations from a re-analysis of the deposited data

Results flagged for a closer look

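Over 120 groups of 4 to 6 libraries (10 genes in 12 groups), 8 had a highest or lowest library set apart from the others by Dixon's 95% criterion, where chance gives about 1 in 20, or 6. Of these, 4 were the same library, replicate 2 of spinal cord E1, whose other values lay closer together. It read 467 CPM of Ntsr2, 912 CPM of Cldn10, 1224 CPM of Htra1 and 1607 CPM of Ttyh1, each the highest of its group. The other 4 were Aldh1l1 at 71.4 CPM in hindbrain GLASTneg control replicate 5, Ntsr2 at 374 CPM in hindbrain GLASTpos control replicate 2, Ntsr2 at 398 CPM in hindbrain GLASTpos E4 replicate 2, and Cldn10 at 44.4 CPM in spinal cord E4 replicate 5.

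Responses that differed between spinal cord and hindbrain by an interaction test in edgeR were those of 9 genes at E4 and 9 at Ech against hindbrain GLASTneg, and of 5 at E1, 9 at E4 and 10 at Ech against hindbrain GLASTpos astrocytes.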

How the results depend on the processing

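Of 5260 values of single genes recomputed under other settings, 5142 kept their side of the thresholds, 48 newly passed, 58 no longer passed and 12 reversed. A value was counted as reversed if its sign changed and the reported or the recomputed value passed the adjusted p threshold. Another 73 values changed sign without passing in either fit and are among the 5142. All 12 reversals came from the group names of the study's own table. With those names, forebrain GLASTpos had Btbd17 at 0.59 and S100b at -1.32, hindbrain GLASTpos had Htra1 at -1.40, Acsl6 at -0.98, Cldn10 at -0.90, Acsl3 at -0.87 and S100b at 2.01, and spinal cord GLASTneg had Ckb at 0.78, Htra1 at 0.075, Acsl6 at 0.049, Cldn10 at 0.21 and Acsl3 at 0.38, as log2 fold changes against the other groups. The number of genes called was then 1 in forebrain GLASTpos (0 as labelled), 2 in hindbrain GLASTpos (1) and 0 in spinal cord GLASTneg (2), and the renaming itself is the cause.

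Of the counts of called genes recomputed, 486 stayed within 1.5 times the reported count and 40 did not. Control spinal cord against hindbrain GLASTneg gave 1 gene with RLE size factors, without the filter and with DESeq2, and 4 with a sheet number term, where 2 were reported. The E1 interaction against hindbrain GLASTneg gave 3 without the filter and 4 with DESeq2, where 0 were reported. Spinal cord E1 against controls gave 3 within that population and 2 with sheet numbers of 57 or more (chosen after seeing the data), where 6 were reported. The cause was not tested.

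Leaving out 1 library at a time gave 5 to 9 genes for spinal cord E1, 9 to 10 for Ech, 8 to 9 for E4 against E1, 1 to 2 for Ech against E4, 0 to 8 and 2 to 9 for the E1 interactions against hindbrain GLASTneg and GLASTpos, 0 to 2 for control spinal cord against hindbrain GLASTneg, 0 to 1 for forebrain GLASTneg and 2 to 4 for the group labelled spinal cord GLASTneg (named hindbrain GLASTpos). The highest E1 counts were those without E1 replicate 2, and the E1 interaction against GLASTpos fell to 2 without control replicate 1 or 5 or E1 replicate 3 or 5 of spinal cord. The other counts did not change.

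With the replicate number as a block, 9 genes were called at spinal cord E1 (6 without it), 1 and 6 in the E1 interactions against GLASTneg and GLASTpos (0 and 5), and 1 in control spinal cord against hindbrain GLASTneg (2), and no other count changed. Libraries with the same replicate number did not deviate together, with a mean r of -0.0044 over 340 pairs, against 0.00097 for other pairs. In the subtype experiment it was -0.012 over 45 pairs. The replicate numbers therefore gave no sign of pairing. The numbers in the column names, which recur between populations, were not used as pairs in this check or in the block.

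Depth limits the isolated FVB/N libraries most, where 3 counts are up to 7.20 CPM.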
